A study of Mus musculus with 6 samples.

Results

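The genes described are 10 of the BCL2 family, chosen by symbol as Bcl2, Bcl2l1, Mcl1, Bcl2l11, Bbc3, Pmaip1, Bax, Bak1, Bid and Bad, and all 10 were found among the 23951 genes of the deposited count table. Total RNA of mouse fetal liver haematopoietic stem cells was sequenced, with 3 libraries labelled RISP wild type (WT) and 3 labelled RISP knockout (KO), all of the C57BL/6 strain. RISP is the Rieske iron-sulfur protein, the electron-passing subunit of respiratory complex III that the gene Uqcrfs1 encodes. The sources used here do not give the Cre line or promoter behind the knockout, the deleted exons, the age of the embryos or the sort of the stem cells. Nor do they tie each library to an embryo of its own. A p-value here thus covers the spread among 6 libraries, part of which can be technical. Sex markers differed among the libraries. KO replicate 2 held 2358 Y-linked counts and 0 of Xist, an RNA of female cells. KO replicate 1 had 0 Y-linked and 13480 Xist, and WT replicate 1 had 13 and 13062. Both were abundant in WT replicate 2 (836, 5842), WT replicate 3 (1022, 8988) and KO replicate 3 (604, 16004). Whether these libraries mix cells of both sexes was not tested. An alternative fit carried the Y-linked level as a covariate.

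Proteins of the BCL2 family decide at the outer mitochondrial membrane whether a cell releases cytochrome c and activates its caspases. BCL2, BCL-XL (from Bcl2l1) and MCL1 hold the membrane intact. BAX and BAK, the products of Bax and Bak1, open pores in it. The BH3-only proteins BIM (Bcl2l11), PUMA (Bbc3), NOXA (Pmaip1), BID and BAD carry death signals by binding the survival proteins, and some of them also activate BAX and BAK directly. Haematopoietic stem cells are known to depend on MCL1 for survival, and much of the regulation of this family, above all of MCL1, BID and BAD, acts on the proteins, which RNA counts do not show.

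Libraries held 10191354 to 14590844 counts in all, and each member had between 23 and 3017 counts in every library. Uqcrfs1, the targeted gene, had 77.3, 123 and 61.0 CPM in WT (counts scaled to a common library depth, with TMM factors) and 4.33, 3.40 and 3.08 CPM in KO, and by this gene all 6 libraries matched their labels. Over all 12204 genes tested, 1391 (11.4%) passed an adjusted p of 0.05 in edgeR, 782 (6.41%) of them higher and 609 (4.99%) lower in KO. When the fit carried length and GC offsets the split was 793 higher and 399 lower. The row of the ribosomal RNA precursor Rn45s took 4.96% to 11.7% of a library's counts, with the lowest shares in KO replicates 2 and 3.

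None of the 10 members passed the threshold between KO and WT. The count was 0 of 10 over all genes tested (edgeR), against the 11.4% of all genes. At an unadjusted p of 0.05 it was 2 of 10, Mcl1 and Bid, against 25.0% of all genes tested, and with DESeq2 it was 1 of 10, Mcl1, against 14.7%. In 3 of the 10 the CPM values of WT and KO did not overlap, against 30.2% of all genes, with Bcl2 and Bid higher in all KO libraries (15.7% of all genes lay that way) and Mcl1 lower (14.5%). These shares are close to or below the background. The median log2 fold change was 0.21 over the members and -0.02 over all genes tested, with 6 members above 0 and 4 below.

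Compared per length of transcript, Mcl1 was by far the most abundant member. In the authors' deposited RPKM values (reads scaled for transcript length and library depth), Mcl1 averaged 89.8 in WT, and the next member, Bak1, 19.1. Bak1, Bad (16.8), Bcl2l1 (16.1) and Bax (11.0) followed in that order, each overlapping its neighbour over the WT libraries. Bid at 7.10 and Bcl2 at 6.72 RPKM overlapped each other and lay below Bax. At the bottom, Bbc3 at 3.27 and Bcl2l11 at 2.91 RPKM also overlapped each other, and Pmaip1 was lowest at 1.29. Of the summed RPKM of the 3 survival members, Mcl1 held 80.8%, 80.5% and 77.8% in the WT libraries, in the order of their replicate numbers, against 72.9%, 74.0% and 80.0% in the KO libraries. These shares overlapped between the groups.

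**Figure D1:**
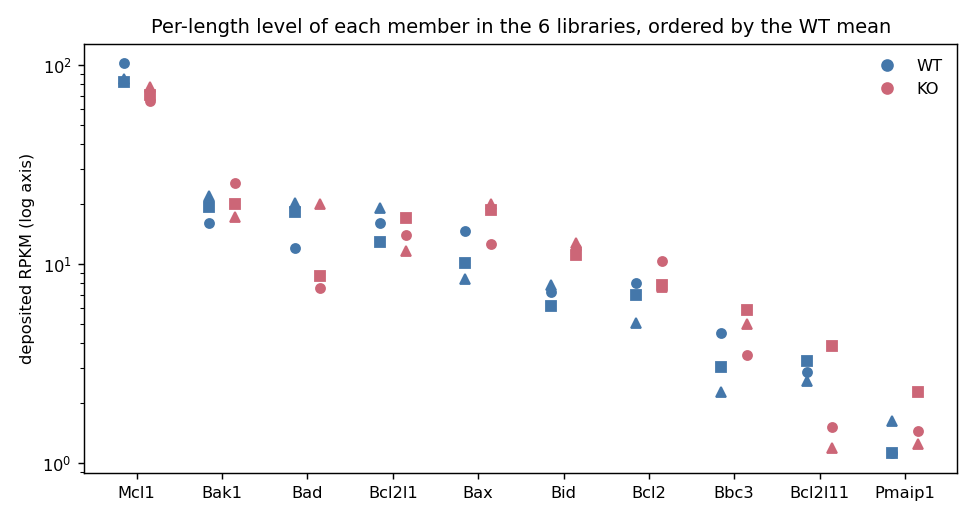
Deposited RPKM of each of the 10 members (log axis) in the 3 WT and 3 KO libraries, ordered by the WT mean; circles, squares and triangles are replicates 1, 2 and 3. Mcl1 lies between 65.9 and 102 RPKM in all 6 libraries, above every other member.

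Among the survival genes, Mcl1 lay lower in KO than in WT and Bcl2l1 at similar values. Bcl2 lay higher, by an estimate similar in size to that of Mcl1 but with an interval that included no change. Mcl1, a short-lived guard of the outer membrane, had 278, 215 and 233 CPM in WT and 182, 195 and 188 CPM in KO. Every KO library lay below every WT library, and the KO libraries were close together. The log2 fold change was -0.36 (SE 0.12, 95% interval -0.61 to -0.11, adjusted p = 0.0570 in edgeR), a level of 0.779 times that of WT. The adjusted p of Mcl1 fell on either side of the threshold with the method, under it in 3 and above it in 13 of 16 alternatives. It was 0.0291 with DESeq2, 0.0471 in edgeR with no count filter and 0.0341 without WT replicate 2, but 0.159 with length and GC offsets and 0.240 without WT replicate 1, the library with the highest value.

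Bcl2, the founding member of the family, had 43.9, 42.5 and 30.8 CPM in WT and 60.8, 47.0 and 44.2 CPM in KO. The lowest KO library exceeded the highest WT library by less than 1 CPM, and on the RPKM scale the groups overlapped, with 8.09 in WT replicate 1 against 7.83 and 7.69 in KO replicates 2 and 3. Its log2 fold change was 0.38 with an interval of -0.08 to 0.83 (edgeR, adjusted p = 0.304). Bcl2l1, the BCL-XL gene known for keeping maturing red cells alive, had 50.7, 38.2 and 56.6 CPM in WT and 44.3, 55.1 and 36.0 CPM in KO. The groups overlapped throughout, and the log2 fold change of -0.10 had an interval of -0.56 to 0.36.

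Both pore-forming genes had overlapping groups. Bak1 had 42.8, 52.3 and 59.2 CPM in WT and 68.6, 54.8 and 46.5 CPM in KO, a log2 fold change of 0.14 (interval -0.28 to 0.56). Bax was at lower counts, with 14.9, 10.2 and 8.71 CPM in WT and 13.3, 19.4 and 19.1 CPM in KO. KO replicates 2 and 3 lay above all WT libraries and KO replicate 1 lay below WT replicate 1. Its log2 fold change was 0.61 with an interval of -0.17 to 1.39 (edgeR, adjusted p = 0.333).

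Of the BH3-only genes, Bid had the largest difference. Bid, whose protein is cut by caspase 8 and then carries the death receptor signal to mitochondria, had 16.5, 11.6 and 17.0 CPM in WT and 25.5, 23.4 and 30.8 CPM in KO. All KO libraries lay above all WT libraries, also on the RPKM scale (6.19 to 7.89 in WT, 11.1 to 12.8 in KO). The estimate was 1.77-fold of WT, a log2 fold change of 0.82 (SE 0.30, interval 0.19 to 1.45), and it did not pass after adjustment over all genes (edgeR, adjusted p = 0.0852). Its adjusted p lay between 0.0604 and 0.280 over the 16 alternatives, so it passed under none of them.

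The other 4 BH3-only genes overlapped between the groups. Bbc3, the PUMA gene and a classical p53 target, had 13.2, 8.19 and 6.94 CPM in WT and 10.9, 17.1 and 15.4 CPM in KO, a log2 fold change of 0.61 (interval -0.25 to 1.48). Bad, whose protein growth factor kinases hold inactive by phosphorylation, had 14.9, 21.2 and 23.8 CPM in WT and 9.30, 11.0 and 21.7 CPM in KO. KO replicate 3 lay among the WT values, and the log2 fold change was -0.52 overall (interval -1.29 to 0.26) and -0.98 without that library (edgeR, adjusted p = 0.180), but -0.29 without KO replicate 1 (adjusted p = 0.727).

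Bcl2l11, the gene of BIM, a broad binder of survival proteins, had 5.31, 10.2 and 11.5 CPM in WT and 5.55, 12.9 and 4.42 CPM in KO. The libraries of each group spread over more than the difference between the groups, and the log2 fold change was -0.24 (interval -1.37 to 0.89), -0.85 without KO replicate 2 and 0.04 without KO replicate 3. Its deposited RPKM values ranked the WT libraries in another order, at 2.87, 3.25 and 2.60. Pmaip1, the gene of NOXA, which binds MCL1 in particular, had 2.31, 2.23 and 3.16 CPM in WT and 2.96, 4.53 and 1.89 CPM in KO. With 23 to 68 counts per library its interval was the widest, from -1.70 to 2.27.

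**Figure D2:**
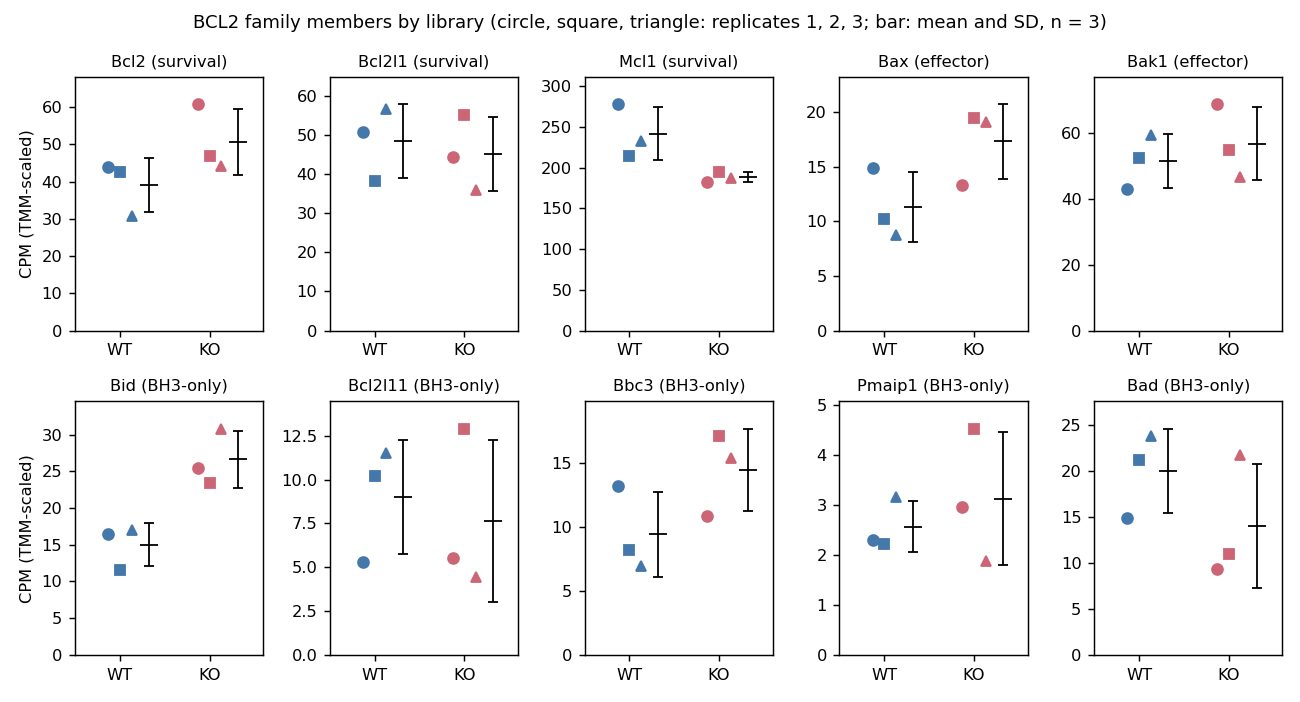
CPM of each member in every library, WT in blue and KO in red, with the mean and SD of 3 libraries beside the points; each panel has its own axis from 0. Mcl1 (182 to 195 CPM in KO, 215 to 278 in WT), Bcl2 and Bid are the panels in which the groups do not overlap.

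The width of these intervals, which are not adjusted for the number of genes, sets what could have been seen. For 4 of the 10 members (Bcl2, Bcl2l1, Mcl1 and Bak1) the 95% interval lay wholly inside a 2-fold change in either direction. For the other 6 it reached past 2-fold on at least one side. In simulated counts with these library sizes, 11942 genes were tested and a small part of them was changed. That part was smaller than the 11.4% of genes called in the data, which makes the adjustment stricter in the simulation. Of the changed genes, 49% were recovered at a log2 fold of 1 and 87% at 2. The changed genes were drawn from those above a minimum mean CPM, which Pmaip1 did not reach, so these shares do not hold for each member.

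**Figure D3:**
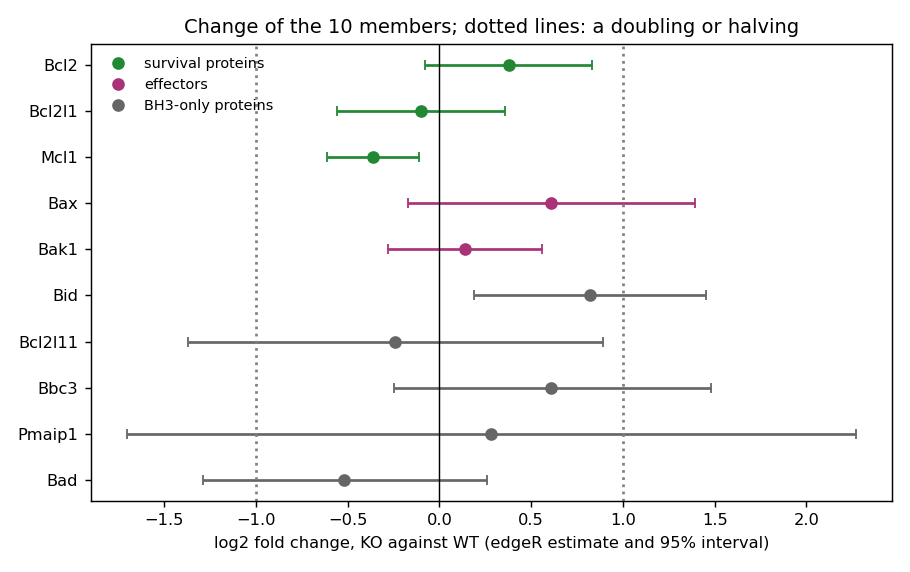
Log2 fold change of each member in KO against WT (edgeR) with its 95% interval, coloured by role; dotted lines mark a doubling or halving. The intervals of Mcl1 and Bid leave out 0, and that of Pmaip1 runs from -1.70 to 2.27.

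Bax and Bbc3 followed each other across the libraries more closely than any other pair of members. The ratio of Bax to Bbc3 counts was 1.13, 1.25 and 1.26 in the WT libraries and 1.23, 1.13 and 1.24 in the KO libraries. Over the 6 libraries, Pearson's r of log2(CPM + 0.5) was 0.993 (exact permutation p = 0.00139, adjusted p = 0.0625 over the 45 pairs of members) and Spearman's rho was 1.00 (exact permutation p = 0.00278, adjusted p = 0.125). Without WT replicates 2 and 3, the libraries farthest from the median of Bbc3, r was 0.967. The order of the libraries was the same for both genes and mixed the groups, with WT replicate 1 above KO replicate 1. This pair was singled out after its values were seen, and the points share library depth. Neither adjusted p passed 0.05, but both permutation p-values were the smallest that 6 libraries allow. Adjusted over the 45 pairs, a single pair could thus not have passed, and the adjusted values decide nothing here. The next closest pair by r was Bcl2 and Bad, at -0.818 with a rho of -0.829 (exact permutation p = 0.0111 and 0.0583, adjusted p = 0.250 and 0.656).

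**Figure D4:**
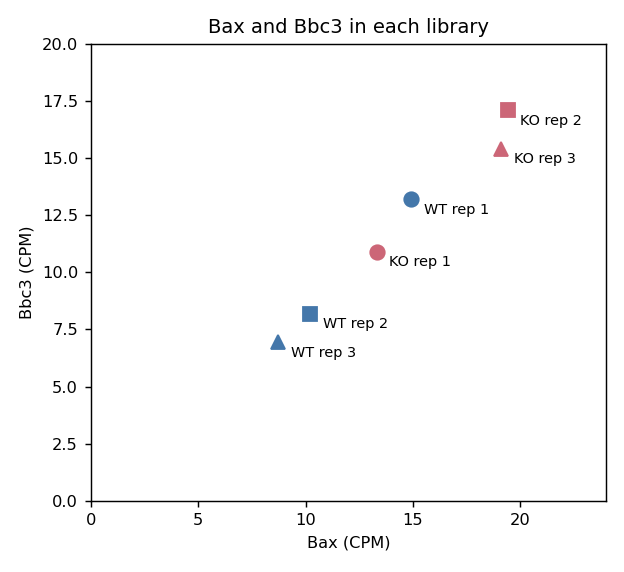
CPM of Bbc3 against CPM of Bax, 1 point per library, both axes from 0. The 6 points lie along 1 line from WT replicate 3 (8.71 and 6.94 CPM) to KO replicate 2 (19.4 and 17.1 CPM), with WT replicate 1 between the KO libraries.

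Promoter windows of Bax and Bbc3 are shown because these genes varied together, and 1 of Bcl2l11 because it and Bbc3 are known targets of FOXO factors. Of the 3 windows of Bbc3 and 2 of Bcl2l11, those printed are the ones that hold a motif match, and the other window of each holds none. Each runs from 250 bases before to 50 after an annotated start (RefSeq, build GRCm38.p6), 5′ to 3′ on the gene's strand. The counts were made on mm9, and the windows were used for their letters only. Capitals mark matches on either strand to the E-box CACGTG, the FOXO core GTAAACA or a p53 half-site. The Bbc3 windows shown share part of their bases, since their starts lie close together.
Bax, chr7:45466849-45467148, minus strand: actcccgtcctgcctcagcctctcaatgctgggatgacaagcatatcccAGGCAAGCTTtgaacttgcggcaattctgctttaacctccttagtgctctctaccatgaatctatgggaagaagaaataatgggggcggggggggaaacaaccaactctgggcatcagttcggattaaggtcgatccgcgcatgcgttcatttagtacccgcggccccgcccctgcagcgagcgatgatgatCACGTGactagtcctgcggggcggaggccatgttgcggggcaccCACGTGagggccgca
Bbc3, chr7:16310181-16310480, plus strand: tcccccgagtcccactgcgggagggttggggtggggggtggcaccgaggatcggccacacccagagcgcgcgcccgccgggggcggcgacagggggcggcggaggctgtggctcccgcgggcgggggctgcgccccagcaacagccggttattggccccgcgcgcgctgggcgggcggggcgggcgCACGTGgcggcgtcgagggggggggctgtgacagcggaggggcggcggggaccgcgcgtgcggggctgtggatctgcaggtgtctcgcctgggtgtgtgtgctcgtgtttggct
Bbc3, chr7:16310011-16310310, plus strand: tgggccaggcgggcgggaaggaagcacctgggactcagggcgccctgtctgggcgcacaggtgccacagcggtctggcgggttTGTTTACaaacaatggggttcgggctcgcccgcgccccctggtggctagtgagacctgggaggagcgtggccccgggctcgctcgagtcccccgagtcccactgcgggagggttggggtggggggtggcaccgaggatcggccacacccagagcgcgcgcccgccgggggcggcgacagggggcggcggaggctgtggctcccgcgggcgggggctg
Bcl2l11, chr2:128125788-128126087, plus strand: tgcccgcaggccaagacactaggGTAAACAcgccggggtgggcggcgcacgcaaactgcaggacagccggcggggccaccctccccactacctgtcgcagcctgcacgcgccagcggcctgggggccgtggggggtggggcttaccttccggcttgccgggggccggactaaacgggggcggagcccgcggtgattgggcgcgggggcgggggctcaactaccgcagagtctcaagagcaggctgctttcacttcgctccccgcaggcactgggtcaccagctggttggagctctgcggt
The Bax window held 2 E-boxes, starting at positions -9 and 35 from the annotated start, and 1 p53 half-site at -201. The first Bbc3 window held 1 E-box at -64. The FOXO core lay at -167 in the second Bbc3 window and at -227 in the Bcl2l11 window. Among all 32851 windows of this table, 7.15% held an E-box, 3.65% the FOXO core and 8.36% a p53 half-site. Of the 15 windows read for 9 members, 2 held the FOXO core, 2 at least 1 E-box and 1 a p53 half-site, numbers too small to set against those shares. The core of the C/EBP-ATF response element, TGATGNAA, was in 3.97% of all windows and in none of these 15. A match describes letters and not a bound site, and no match says only that the letters are not in that window.

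Ratios of a death gene or BCL-XL to its partner within each library need no scaling between libraries. All 6 ratios computed overlapped between the groups. The ratio of Bcl2l11 to Mcl1 counts on the log2 scale averaged -4.81 ± 0.77 over WT and -4.78 ± 0.77 over KO libraries (SD, n = 3 each), and that of Pmaip1 to Mcl1 was -6.54 ± 0.35 and -5.98 ± 0.60. Bax to Bcl2 stood at -1.81 ± 0.25 and -1.56 ± 0.54. Bbc3 to Bcl2 stood at -2.08 ± 0.33 and -1.82 ± 0.57, Bid to Bcl2 at -1.38 ± 0.50 and -0.92 ± 0.37, and Bcl2l1 to Mcl1 at -2.33 ± 0.25 and -2.08 ± 0.28. Exact two-sided permutation p-values of the 6 ratios ran from 0.300 to 1.00 (adjusted over the 6, 0.600 to 1.00), where 3 libraries against 3 allow no p below 0.1.

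Of 17 other genes of the family or its margins, 8 had enough counts to be tested, 0 were higher and 1, Bnip3l, was lower in KO, where 4.99% of all genes tested were lower. Bnip3l encodes NIX, a mitophagy receptor with a BH3-like stretch that clears mitochondria from maturing red cells. It had 152, 151 and 144 CPM in WT and 99.2, 95.1 and 88.6 CPM in KO, with a gap between the groups far wider than their spread. The log2 fold change was -0.66 (SE 0.13, adjusted p = 0.00241 in edgeR). The median over the 8 was 0.22. The survival genes Bcl2a1a to Bcl2a1d, near-identical copies whose counts the mapping could split, were at 0 to 22 counts per library. Bcl2a1a had 8, 11 and 0 counts in WT and 0 in every KO library. Hrk, Bcl2l15 and Bcl2a1c had 0 counts in all 6 libraries.

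Downstream of the outer membrane, 2 of 21 caspase and apoptosome genes were lower in KO and 0 were higher, where 4.99% of all genes tested were lower and 6.41% higher. With so few genes this is near the background. Casp2, an initiator caspase linked to DNA damage and p53, had 140, 105 and 113 CPM in WT and 69.2, 82.4 and 81.4 CPM in KO (log2 fold change -0.62, SE 0.16, adjusted p = 0.0131 in edgeR). Xiap, the gene of a direct caspase inhibitor, had 193, 167 and 166 CPM in WT and 120, 127 and 119 CPM in KO (log2 fold change -0.52, SE 0.13, adjusted p = 0.00955). The KO libraries lay below the WT libraries for both. Neither call held on the RPKM scale (adjusted p = 0.0770 and 0.0568 with limma on log2(RPKM + 1)). Casp2 also lost it without WT replicate 1 (0.0750) or KO replicate 1 (0.0605), and Xiap with length and GC offsets (-0.36, adjusted p = 0.0811).

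The genes of the apoptosome, the platform that cytochrome c assembles, did not pass with all libraries. Apaf1, its scaffold, averaged 33.5 ± 4.25 CPM over the WT and 35.9 ± 10.0 CPM over the KO libraries (SD, n = 3 each). In the same order, Cycs, the cytochrome c gene, was at 128 ± 7.31 and 104 ± 27.9 CPM and Casp9, the caspase gene of this complex, at 17.7 ± 3.13 and 15.7 ± 4.14 CPM. Cycs, at a log2 fold change of -0.30, was at -0.54 without KO replicate 1, where it passed (edgeR, adjusted p = 0.0430), and at -0.09 with length and GC offsets (adjusted p = 0.808). The median log2 fold change over the 21 genes was -0.27, with 14 below 0 and 7 above, against -0.02 over all genes tested.

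Among 25 genes known to regulate members or their proteins, 24 were tested, 7 were higher and 1 was lower in KO, with a median of 0.17, where 6.41% of all genes tested were higher and 4.99% lower. The list was chosen with earlier results of these data known, so its count is not independent of them. Atf4 and Ddit3, whose products ATF4 and CHOP drive the stress response through which BIM, PUMA and NOXA genes can be induced, rose. Ddit3 went from 5.81, 8.47 and 2.85 CPM in WT to 29.9, 27.1 and 28.0 CPM in KO (log2 fold change 2.31, SE 0.39, adjusted p = 5.24e-04 in edgeR). Atf4 rose by 1.95 and Trib3, a target of both factors, by 3.21 on the log2 scale (edgeR, adjusted p = 4.11e-09 and 2.19e-07). Beside these, Bcl2l11, Bbc3 and Pmaip1 stood at -0.24, 0.61 and 0.28 without passing.

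Trp53, the p53 gene, averaged 140 ± 8.02 CPM over the WT and 140 ± 8.16 CPM over the KO libraries (SD, n = 3 each), a log2 fold change of -0.01 with an interval of -0.27 to 0.26. Its inhibitors were higher in KO. Mdm4 had 44.6, 34.5 and 38.0 CPM in WT and 69.4, 71.8 and 84.5 CPM in KO (log2 fold change 0.95, adjusted p = 0.00217 in edgeR). Mdm2, at once a p53 target and the ligase that degrades p53, rose by 0.64 (adjusted p = 0.0184), a call that ended when WT replicate 1 (0.0564) or 2 (0.0522) or KO replicate 2 (0.0782) or 3 (0.112) was left out.

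Of the listed genes that act on the MCL1 or BAD proteins, Huwe1 and Pim1 were higher in KO, while Usp9x, whose product removes ubiquitin from MCL1, stood at -0.29, Fbxw7 at 0.20 and Akt1 at 0.19 without passing. Huwe1, a ubiquitin ligase that marks MCL1 for destruction, had 728, 900 and 789 CPM in WT and 1181, 1230 and 1241 CPM in KO (log2 fold change 0.60, SE 0.10, adjusted p = 3.43e-04 in edgeR). Pim1, a cytokine-induced kinase that phosphorylates BAD, rose by 0.78 (adjusted p = 9.39e-04), with 81.8 to 89.6 CPM in WT and 132 to 164 CPM in KO. Hlf, a stem cell transcription factor in the same list, fell by 0.55 on the log2 scale (adjusted p = 0.0151). Without WT replicate 1 its value was -0.36 (adjusted p = 0.0956), and the call was also lost without KO replicate 2 (0.0941) or KO replicate 3 (0.0820) and on the RPKM scale (0.0977 with limma on log2(RPKM + 1)).

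**Figure D5:**
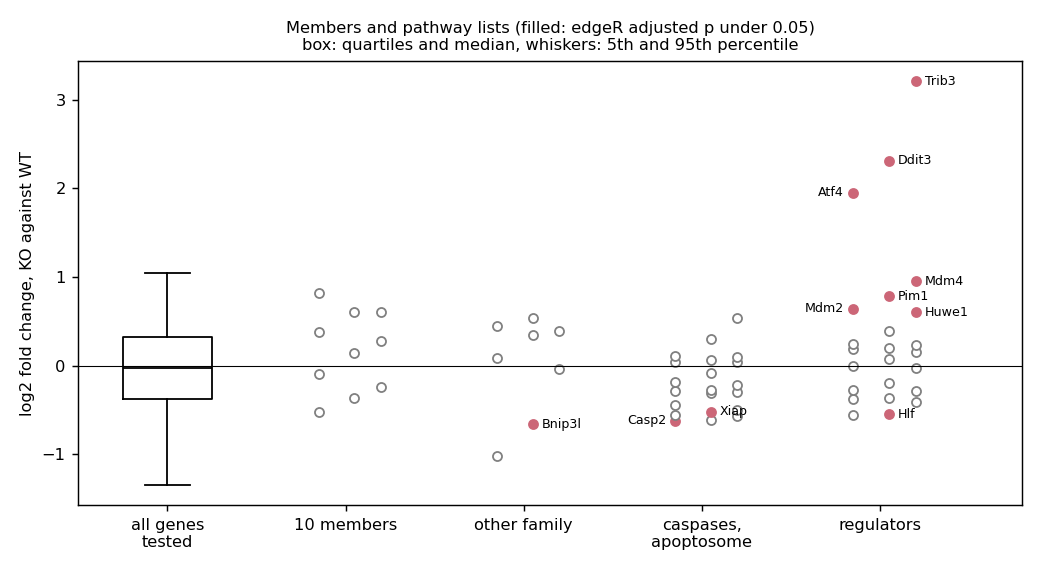
Log2 fold change in KO against WT (edgeR) of the members and of 3 lists of related genes, 1 point per tested gene, filled and named where the adjusted p was under 0.05; the box gives the quartiles and its whiskers the 5th and 95th percentile of all 12204 genes tested, and the sideways shift of points carries no meaning. No member is filled, and the points farthest from 0 are Trib3, Ddit3 and Atf4 among the regulators.

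Markers of other cell types differed between the groups and between WT libraries. The 9 stem cell markers summed to 1936 to 2355 CPM in WT and 1485 to 1739 CPM in KO, and 4 of them, Kit, Cd34 and Hlf included, were lower. Of 6 erythroid markers tested, 3 were lower (205 to 440 CPM summed in WT, 35.9 to 67.4 in KO), with the listed but untested globin genes Hbb-b1 and Hba-a1 at 0 counts throughout. The read counter and annotation are not given, so these 0 counts are not read as absence of globin RNA. Macrophage markers summed to 138, 62.2 and 645 CPM in WT and 25.4 to 55.2 CPM in KO, with 1 of 9 tested lower. Endothelial markers summed to 362, 201 and 995 CPM in WT and 124 to 171 CPM in KO, with 1 of 6 tested lower. WT replicate 3 thus stood apart in both. Hepatoblast markers summed to 58.2 to 127 CPM in WT and 26.3 to 63.8 in KO, with 2 of 6 tested lower, mast cell and basophil markers to 2.10 to 7.25 and 8.65 to 48.3, with 1 of 3 tested higher, and lymphoid markers to at most 5.12 CPM in any library, with none tested. Stem cell, erythroid and hepatoblast sums were all highest in WT replicate 1, the library with the most Mcl1. Without this library Mcl1 stood at -0.25 (edgeR, adjusted p = 0.240) and Bid at 0.89 (adjusted p = 0.119). Without WT replicate 3, Mcl1 stood at -0.39 (edgeR, adjusted p = 0.0709) and Bid at 0.92 (adjusted p = 0.0962). In such bulk libraries fewer cells of a type and less RNA per cell cannot be told apart, and the part of the other cell types in the members' values was not tested.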

How the data were processed

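The authors deposited read counts per gene symbol (whole numbers, not normalized) and RPKM values for the same 6 libraries. Per the submitters' processing notes, TopHat and Cufflinks were used on the mm9 build. The sources used here give no versions, read counter, annotation or strand setting, so overlapping and antisense genes cannot be told apart. Per the labels' protocols, libraries came from nanogram amounts of total RNA (SMARTer Stranded Total RNA-seq, Pico input) sequenced on a NextSeq500. Counts were tested with edgeR 4.0.16 in R 4.3.3 (TMM, filterByExpr, robust quasi-likelihood test with no term besides group, Benjamini-Hochberg adjustment over 12204 genes). The SE is the log2 fold change divided by the root of F, and intervals use the fit's degrees of freedom. PCR reads without molecular identifiers are not independent molecules. Alternatives used DESeq2 1.42.0, limma 3.58.1 (voom, and log2(RPKM + 1) or log2(RPKM + 0.1)), other scaling, no filter, covariates, offsets, a replicate block and leaving out single libraries. Scripts were tested on simulated data.

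Members and lists were chosen with earlier results of these data known. Named genes are the members, Uqcrfs1, every list gene past the threshold and a few fixed pathway genes. Nearest-pattern genes were to be named for members past the threshold, of which there were 0. The promoter of Pmaip1 was not read, and only windows of Bax, Bbc3 and Bcl2l11 are printed.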

Additional observations from a re-analysis of the deposited data

How the results depend on the processing

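Limits on these results come from 3 libraries per group and from low counts of Pmaip1, Bcl2l11, Bax and Bbc3. Of 160 values of the members under 16 alternatives each, 152 kept their direction and side of the threshold, 3 passed it (all Mcl1, named with its values) and 5 changed sign. Those were Bcl2l1 at 0.03 without WT replicate 3 and 0.04 without KO replicate 3 (-0.27 to 0.04 when 1 library was left out), Bcl2l11 at 0.04 without KO replicate 3 (-0.85 to 0.04), Pmaip1 at -0.08 without KO replicate 2 (-0.08 to 0.54) and Bak1 at -0.02 without KO replicate 1 (-0.02 to 0.26). The number of members past the threshold was 1 with DESeq2 or no count filter, and 0 to 1 when 1 library was left out. Over all genes the number was 583 with log2(RPKM + 1), 560 with log2(RPKM + 0.1) and 712 to 1263 without 1 library, with the lowest values 712 and 833 without KO replicate 2 or KO replicate 3. Of caspase and apoptosome genes 0 passed on either RPKM scale, 1 with length and GC offsets and 1 to 3 without 1 library. Trp53 was at 0.08 on both RPKM scales, 0.05 with library totals, 0.00 with the Y-linked covariate or without the Rn45s row, an alternative chosen after seeing the data, and -0.05 to 0.04 without 1 library. Without KO replicate 2, Apaf1 was at -0.15 (-0.15 to 0.24 without 1 library) and Casp9 at 0.03 (-0.31 to 0.03). The KO minus WT difference of the log2 ratio of Bcl2l11 to Mcl1 was 0.03 with all libraries. This difference was -0.26 on the RPKM scale, -0.42 without WT replicate 1 and -0.41 without KO replicate 2 (-0.42 to 0.34 without 1 library). The cause of these changes was not tested.

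Same-numbered libraries did not deviate together (correlations 0.0224, 0.0117 and -0.00343), and not every library correlated best with its own number. With a replicate block, 1341 genes and 0 members passed.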

Other observations

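The deposited counts and RPKM values of Bcl2l11 did not keep a constant relation. The length that would turn its counts into its RPKM, with each library's total count as the depth, was 1.81, 3.09 and 4.35 kb in WT replicates 1 to 3 and 3.53, 3.42 and 3.91 kb in KO replicates 1 to 3. The longest was 2.41 times the shortest, a wider range than in 97.0% of 12052 genes with a value. In the other 9 members the longest was 1.07 (Bax) to 1.38 (Bid) times the shortest, and the median gene had 1.15. The 3 WT libraries of Bcl2l11 lay at 2.87, 3.25 and 2.60 RPKM but at 5.31, 10.2 and 11.5 CPM, so their order differs between the tables. KO replicate 2 was the highest library on both scales, at 3.88 RPKM and 12.9 CPM.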
